A study of Mus musculus with 4 samples.

Results

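The Fat and Dachsous genes encode giant cadherins, single-pass membrane proteins with a very long row of extracellular cadherin repeats. The gene group here had 7 listed genes, namely the 4 Fat paralogs Fat1, Fat2, Fat3 and Fat4, the Dachsous paralogs Dchs1 and Dchs2, and Fjx1, which encodes the relative of the fly Golgi kinase four-jointed. The members were taken by gene symbol in the platform annotation, with the probe set of the highest mean over the 4 arrays where a gene had several. Of the 7 genes, 6 had a probe set, 1 each, among 19505 gene symbols on the array, and Dchs2 was not analysed here. The family was chosen with earlier results in view, in which Fat1 and Fat2 had been selected on the size of their difference between the groups. The differences below are therefore descriptions, and those of Fat1 and Fat2 are no independent evidence.

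Total RNA of the cerebellum was profiled on 4 Affymetrix arrays, 1 per sample, from male C57BL/6N mice aged 10 weeks. The control group (n = 2, replicates 7 and 9) received vehicle by mouth for 4 days, and the exposed group (n = 2, replicates 6 and 7) received the neonicotinoid insecticide clothianidin at 50 mg per kg per day for 4 days. Both groups were tested for motor coordination on a rotarod, and brains were taken directly afterwards. The labels do not say that the samples of a group came from separate animals, so a p-value here reflects how far these samples differ, and that spread could be technical.

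Fat4 and Dchs1 are the receptor and ligand of a pathway that passes information between neighbouring cells. Fat4 on one cell binds Dchs1 on the next, and Fjx1 phosphorylates cadherin repeats of both in the Golgi and so tunes the binding. The pathway is known for planar cell polarity, the alignment of cells within a tissue plane, for growth control through the Hippo kinases, and for neuronal migration in the developing brain. Fat1 acts on the actin cytoskeleton and cell contacts, and Fat3 shapes the dendrites of retinal amacrine cells. Fat2 is known in the brain from the parallel fibres of cerebellar granule cells.

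The sequences before the annotated starts are shown for 3 Fat paralogs because Fat1 and Fat2 had the widest separation between the groups and Fat3 overlapped. They are the 250 bases upstream of a RefSeq transcript start in GRCm38.p6, 5′ to 3′ on the gene's strand. The capitals mark GGAATG, the core motif bound by the TEAD factors of the Hippo pathway, searched on both strands (as GGAATG or CATTCC).

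Fat1, plus strand of chr8:44949958-44950207: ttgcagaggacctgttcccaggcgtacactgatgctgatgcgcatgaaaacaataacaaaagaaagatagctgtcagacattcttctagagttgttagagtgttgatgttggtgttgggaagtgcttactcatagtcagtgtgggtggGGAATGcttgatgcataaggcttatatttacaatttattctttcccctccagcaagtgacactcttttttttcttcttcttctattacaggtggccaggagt
Fat2, minus strand of chr11:55312258-55312507: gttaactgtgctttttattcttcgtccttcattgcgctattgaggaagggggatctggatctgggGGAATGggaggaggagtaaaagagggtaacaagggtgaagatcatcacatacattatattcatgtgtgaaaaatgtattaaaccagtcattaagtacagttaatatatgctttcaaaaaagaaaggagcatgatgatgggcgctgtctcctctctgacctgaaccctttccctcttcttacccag
Fat3, minus strand of chr9:16502055-16502304: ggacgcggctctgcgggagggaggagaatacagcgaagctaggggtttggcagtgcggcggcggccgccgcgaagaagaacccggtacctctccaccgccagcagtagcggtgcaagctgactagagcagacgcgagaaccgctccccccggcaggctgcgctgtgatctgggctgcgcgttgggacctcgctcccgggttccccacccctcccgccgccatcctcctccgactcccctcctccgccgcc

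RefSeq windows were found for 5 of the 7 genes, the 4 Fat paralogs and Dchs2. The motif begins 102 bases before the start in the Fat1 window and 185 bases before it in the Fat2 window, and these letters are not in the Fat3, Fat4 and Dchs2 windows. Of 32851 windows of this length, 12.6% hold the motif on either strand. The Fat1 and Fat2 windows, which both lie inside their gene spans, had 42% and 41.6% G and C bases and 2 and 3 CG dinucleotides. The Fat3 window had 70.4% and 27, the Fat4 window 54.8% and 11, and the Dchs2 window 72% and 22, against medians of 52.4% and 6 over all windows. The annotated starts of Fat1 and Fat2 lie 17108 and 25248 bases inside the RefSeq gene spans, so other annotated transcripts of both genes begin further upstream. For Fat3, Fat4 and Dchs2 that distance is 627, 2273 and 583 bases. Lying this far inside the genes, the Fat1 and Fat2 windows may not be the promoters used in this tissue. What they share is not read as a likeness of promoters. The motif matches are descriptions of letters, and no binding was measured here.

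The signals of the 6 genes ranged from 4.63 for Fat4 to 14.07 for Fat2 on the log2 scale, around a median of 6.5 over all probe sets. The values are log2 probe set summaries, and probe sets differ in how strongly they respond, so their order is one of signals and not of transcript amounts. Fat2 had the highest mean over the 4 arrays, 14.07, which was above 97% of all probe sets. Fat1 followed at 11.59 and Fjx1 at 11.1, and these neighbours in the order did not separate, since the lowest Fat1 array (10.82) lay below the highest Fjx1 array (11.57). Dchs1 stood at 7.59, Fat3 at 5.90 and Fat4 at 4.63, each with no array in the range of its neighbours. The 1091 olfactory receptor probe sets, for which little cerebellar RNA is expected, had a median of 4.09 and a 95th percentile of 5.53. Fat4 thus lay within the range of these receptors, above 76.3% of them, and Fat3 lay just above their 95th percentile. Signal over background is not known from these values, and whether Fat4 RNA was detected cannot be told.

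**Figure D1:**
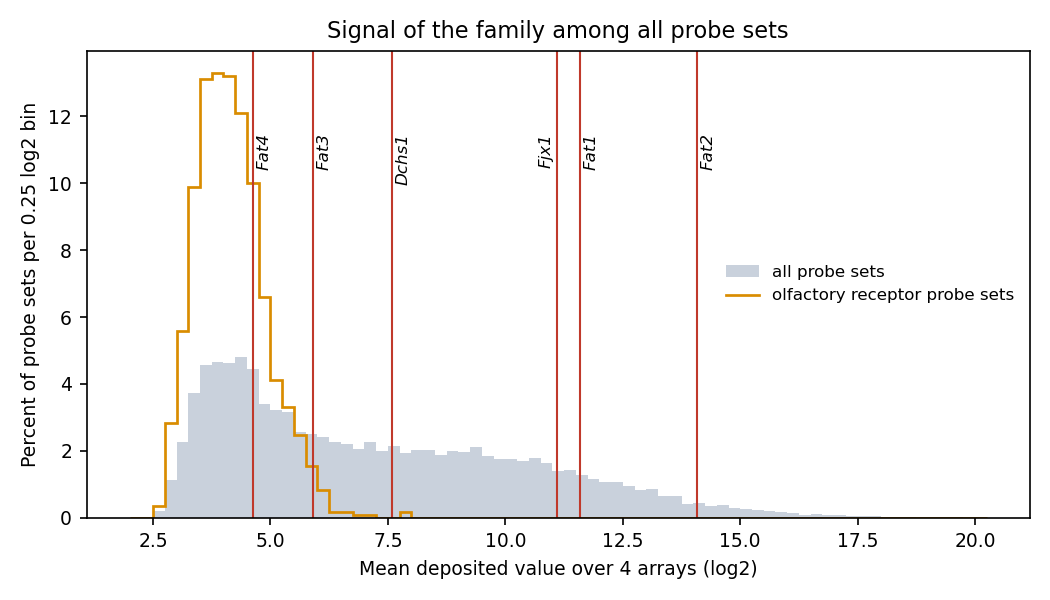
The grey area gives the percent of all probe sets and the orange outline the percent of the 1091 olfactory receptor probe sets in each bin of the mean deposited log2 value over 4 arrays, and red lines mark the 6 genes. Fat4 at 4.63 lies within the receptor distribution, while Fat1, Fat2 and Fjx1 lie above 11.

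Fat1, whose protein links cell contacts to actin, was at 10.95 on vehicle replicate 7 and 10.82 on vehicle replicate 9, and at 12.6 and 11.99 on clothianidin replicates 6 and 7. Both clothianidin values lay above both vehicle values, and the gap between the groups was wider than the spread within either. The log2 difference was 1.41 with a standard error of 0.31 in limma, a 2.66-fold higher mean signal after clothianidin. Fat2, the granule cell paralog, was at 13.65 and 13.68 after vehicle and at 14.89 and 14.07 after clothianidin. The groups did not overlap, and the vehicle values lay 0.03 apart while the clothianidin values lay 0.82 apart. Fat2 thus differed by 0.82 on the log2 scale (SE 0.34), or 1.76-fold. Without clothianidin replicate 6 the Fat2 difference was 0.41, and that of Fat1 was 1.11.

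The other paralogs overlapped between the groups. Fat3, the paralog known from neuronal dendrites, was at 5.71 and 5.83 after vehicle and at 6.26 and 5.78 after clothianidin. Only clothianidin replicate 6 stood above the vehicle range. The log2 difference was 0.25 with a standard error of 0.29 and a 95% interval from -0.42 to 0.92, and it was 0.01 without that array.

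In the receptor and ligand pair, Fat4 was at 4.68 and 4.27 after vehicle and at 4.93 and 4.62 after clothianidin. The second clothianidin value lay inside the vehicle range. Fat4 thus differed by 0.3 with a standard error of 0.29 and a 95% interval from -0.38 to 0.98, and it was 0.10 without vehicle replicate 9 and 0.15 without clothianidin replicate 6. Dchs1, its ligand, was at 7.25 and 7.48 after vehicle and at 8.25 and 7.39 after clothianidin. Again clothianidin replicate 6 was high and replicate 7 lay between the vehicle values. The log2 difference was 0.46 with a standard error of 0.35 and a 95% interval from -0.34 to 1.25, and it was 0.03 without clothianidin replicate 6 and 0.89 without clothianidin replicate 7.

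Fjx1, the Golgi kinase gene, was at 11.57 and 10.36 after vehicle and at 11.28 and 11.19 after clothianidin. Both clothianidin values lay between the vehicle values, and the vehicle values spread wider than those of any other member. The difference came to 0.27 with a standard error of 0.40 and a 95% interval from -0.66 to 1.2. Leaving out vehicle replicate 9 turned it to -0.34, and leaving out vehicle replicate 7 gave 0.88.

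**Figure D2:**
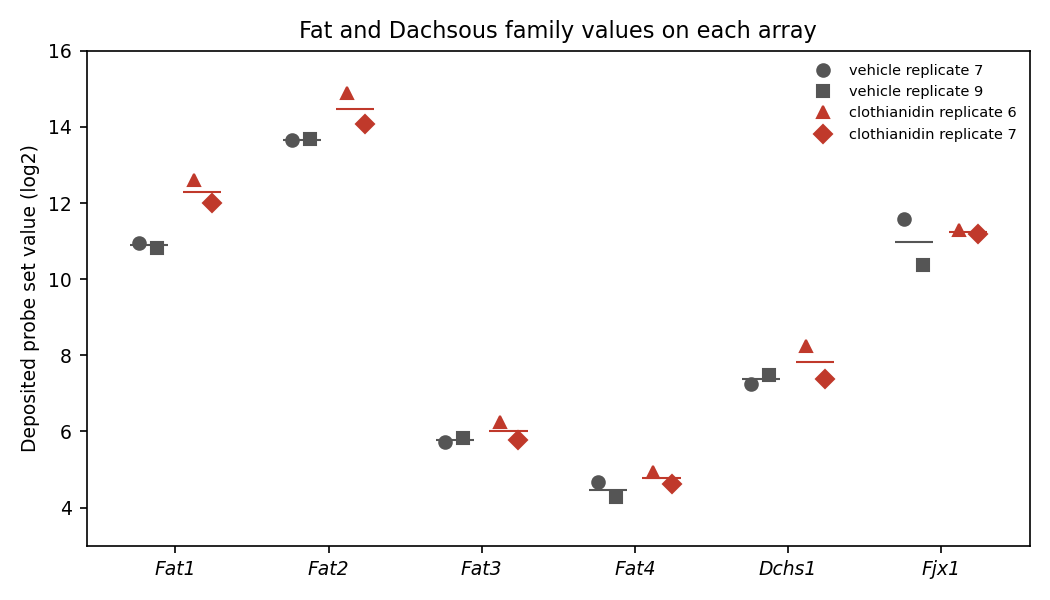
Points are the deposited log2 values of the 6 genes on the vehicle arrays (grey) and the clothianidin arrays (red), with 1 symbol per array, and horizontal lines are group means (n = 2). The groups are apart for Fat1 and Fat2 and overlap for Fat3, Fat4, Dchs1 and Fjx1.

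None of the 6 genes passed limma with Benjamini-Hochberg adjustment over all 22206 probe sets, with an adjusted p of 0.997 for each. No probe set on the array did (0%), and at an unadjusted p under 0.05 there were 940, or 4.23%, among them 2 of the 6 genes, Fat1 and Fat2. A linear model without moderation passed 8 probe sets, none of them a family member. All 6 genes had a higher mean after clothianidin, with a median log2 difference of 0.38, while over all probe sets 48.1% were higher and the median was -0.01. The groups did not overlap for 2 of the 6 genes, both higher after clothianidin, where 30.6% of all probe sets did not overlap in either direction and 15.1% did so after clothianidin higher. With a difference of at least 1.5-fold the members' count stayed at 2, against 7.61% of all probe sets in either direction and 4.04% after clothianidin higher. Since Fat1 and Fat2 had been chosen on this contrast, nothing is read from these counts.

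**Figure D3:**
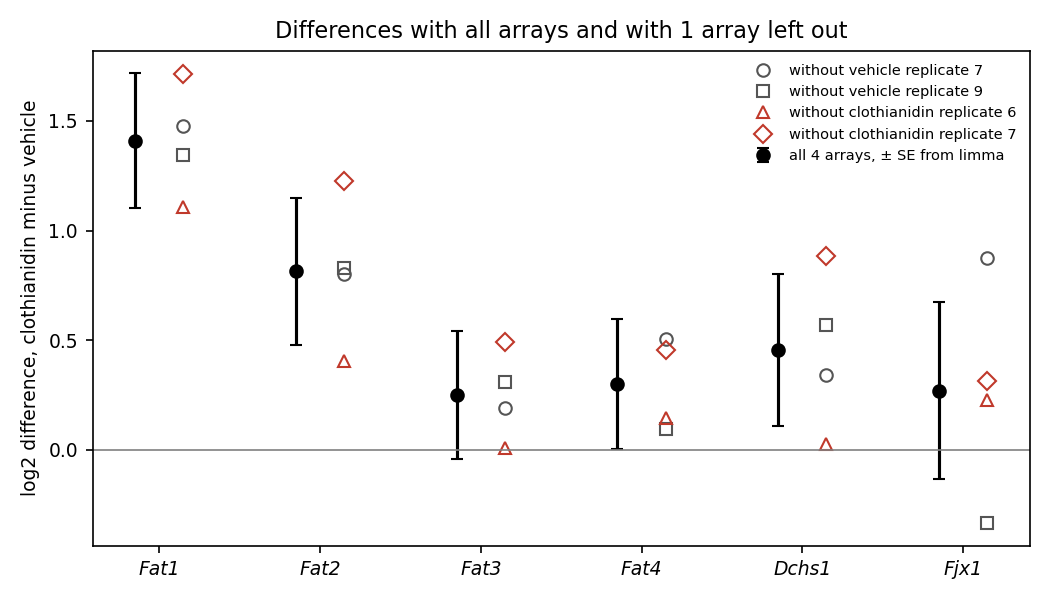
Black points are log2 differences (clothianidin minus vehicle) with all 4 arrays, with bars of ± 1 SE from limma, and open symbols are the differences with 1 array left out. Fat1 stays between 1.11 and 1.72, Fat3 and Dchs1 fall to 0.01 and 0.03 without clothianidin replicate 6, and Fjx1 turns to -0.34 without vehicle replicate 9.

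Whether the paralogs responded differently was asked within arrays, where a shift of the whole array cancels. For each of the 15 pairs of the 6 genes, the difference of the log2 values was taken on every array and compared between the groups. Fat1 minus Fat2 was -2.7 and -2.86 after vehicle, against -2.29 and -2.08 after clothianidin. The groups did not overlap, so Fat1 was higher relative to Fat2 on both clothianidin arrays, by 0.60. Fat1 minus Fat3 was 5.24 and 4.99 after vehicle and 6.34 and 6.21 after clothianidin, a shift of 1.16 with a within-group spread of 0.18 and 0.09 (SD, n = 2 each). Relative to Fat4, Dchs1 and Fjx1 the shift of Fat1 was 1.11, 0.96 and 1.14, each with no overlap.

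Fat2 shifted relative to Fat3, Fat4 and Dchs1 by 0.57, 0.52 and 0.36, again without overlap, and relative to Fjx1 by 0.55 with overlap. Among Fat3, Fat4, Dchs1 and Fjx1 none of the 6 pairs separated the groups, and the shifts lay between -0.21 and 0.19. Fat4 minus Dchs1, the receptor relative to its ligand, was -2.57 and -3.21 after vehicle and -3.32 and -2.77 after clothianidin, a shift of -0.16. In all, 8 of the 15 pairs were apart, and 5 of these hold Fat1 and 4 hold Fat2, so the pairs are not independent. Each of the 8 holds Fat1 or Fat2, which had been chosen on the size of this contrast. Their shifts are therefore descriptions and no independent evidence of a different response. The exact permutation test over the arrays, two-sided, gave p = 0.333 for these 8 pairs, the smallest value that 2 arrays against 2 allow, and 0.625 after Benjamini-Hochberg adjustment over the 15 pairs. This exact test therefore cannot pass a threshold of 0.05 here, and the missing call does not show that the paralogs responded alike.

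The arrays differed in the same sense for most of the family. Clothianidin replicate 6 had the highest value of the 4 arrays for 5 of the 6 genes, all but Fjx1, while 26.4% of all probe sets peaked on that array. Its deviation from each gene's mean over the arrays was 1.01 for Fat1, 0.82 for Fat2, 0.66 for Dchs1, 0.37 for Fat3 and 0.31 for Fat4. On clothianidin replicate 7 the deviation was 0.4 for Fat1 and lay between -0.20 and 0.09 for the other 5 genes. The median deviation of the 6 genes was 0.51 on clothianidin replicate 6 and -0.0037 on replicate 7 of that group, with -0.26 and -0.37 on vehicle replicates 7 and 9. Over all probe sets it lay between -0.03 and 0.02 on every array.

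**Figure D4:**
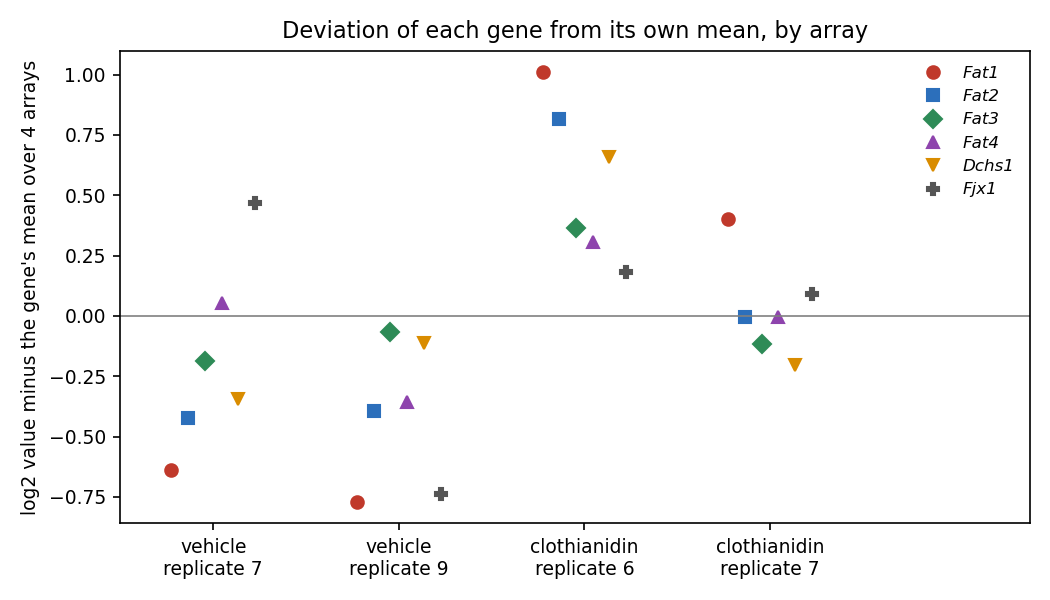
Each symbol is the deposited log2 value of 1 gene on 1 array minus that gene's mean over the 4 arrays. All genes but Fjx1 are highest on clothianidin replicate 6, with Fat1 at 1.01, and Fat1 at 0.4 stands apart from the others on clothianidin replicate 7.

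Among genes for proteins that bind Fat or Dachsous tails or act directly beneath them, 14 of 15 listed were measured, 9 higher and 5 lower after clothianidin, and 0 passed limma over all probe sets. Their median log2 difference was 0.24, against -0.01 over all probe sets. Mpdz, which encodes a scaffold that acts with Fat4, was at 7.92 and 8.6 after vehicle and at 9.18 and 9.24 after clothianidin, a log2 difference of 0.95. Of the 14 genes, 5 (35.7%) were apart with clothianidin higher (Mpdz, Rere, Enah, Lix1l and Evl) and 2 with it lower (Septin9 and Ap2a1). Beside this, 15.1% of all probe sets were apart with clothianidin higher and 30.6% in either direction. The atrophin gene Rere was at 11.85 and 12.05 after vehicle and 12.88 and 12.35 after clothianidin. Lix1l and Septin9, which encode partners in the Dchs1 pathway, had log2 differences of 0.38 and -0.36. Enah, Evl and Vasp, the actin regulators of the Ena/VASP family that bind the Fat1 tail, had 0.4, 0.34 and 0.26. Atn1, the second atrophin gene, was at 12.13 and 13.11 after vehicle and 13.75 and 12.7 after clothianidin, and these ranges overlapped. Differences were 0.22 for Lix1, 0.21 for the receptor phosphatase gene Ptprf, -0.08 for the polarity scaffold gene Pals1, -0.38 for the endocytic adaptor gene Ap2a1, -0.20 for Homer1 and -0.15 for Homer3. Without clothianidin replicate 7 the median of these 14 genes was 0.11.

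Genes of the Hippo pathway, the growth-controlling kinase cascade and its effectors, had 18 of 28 measured members higher and 10 lower, with a median of 0.16 and 0 passing limma. Ccn2, a secreted matrix protein gene and a standard target of the effector YAP, was at 5.24 and 5.43 after vehicle and at 6.55 and 6.66 after clothianidin. The groups were well apart, by 1.27, and the vehicle values lay just below the 95th percentile of the olfactory receptors. Ccn1, another such target, was at 6.74 and 6.74, against 6.66 and 6.63 after clothianidin. The kinase gene Lats2 was at 13.19 and 13.29 after vehicle and at 12.65 and 12.27 after clothianidin, a difference of -0.78, and the upstream kinase gene Taok1 had 0.7. The effector genes Yap1 and Wwtr1 overlapped between the groups, Yap1 at 7.42 and 7 after vehicle and 7.63 and 6.45 after clothianidin. The values of Ccn1, Yap1 and Wwtr1 were picked out after they had been seen. Of the 28 genes, 4 had means below the 95th percentile of the olfactory receptors. Over the list, 9 genes (32.1%) were apart with clothianidin higher and 3 with it lower. Of all probe sets, 15.1% were apart with clothianidin higher and 30.6% in either direction. The Hippo median was 0.08 without vehicle replicate 9, 0.10 without clothianidin replicate 6 and 0.25 without clothianidin replicate 7.

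Core planar cell polarity genes, the parallel system to the Fat and Dachsous pathway, had 10 of 18 measured members higher and 8 lower, with a median of 0.02 and 0 passing limma. Celsr2, a polarity cadherin gene, was at 6.8 and 6.86 after vehicle and at 7.85 and 7.42 after clothianidin, a difference of 0.81. The Wnt receptor gene Fzd6 was at 8.26 and 8.24, against 7.71 and 7.8 after clothianidin, a difference of -0.50, and the scaffold gene Scrib had 0.47. Groups were apart for 2 polarity genes with clothianidin higher, Celsr2 and Scrib, and for 4 with it lower, Fzd6, Vangl1, Vangl2 and Fuz, the last 3 named after their values were seen. Fuz had a mean of 3.25, above only 8.8% of the olfactory receptor probe sets. Of the other cadherin superfamily genes, 24 of 44 measured were higher and 20 lower, with a median of 0.05 and 0 passing limma. The groups were apart for 8 of these cadherin genes with clothianidin higher and 3 with it lower. Beside both lists, 15.1% of all probe sets were apart with clothianidin higher and 30.6% in either direction. The protocadherin gene Pcdh9 was at 9.47 and 9.48 after vehicle and at 10.58 and 9.92 after clothianidin. It shared with Fat1 and Fat2 close vehicle values and a higher value on clothianidin replicate 6 than on replicate 7. Cdh22 and Pcdh12 had log2 differences of 0.61 and 0.57. Pcdh12, with a mean of 4.34, lay within the range of the olfactory receptors, above 63.2% of them. Below the 95th percentile of these receptors lay the means of 16 of the 44 cadherin genes and 4 of the 18 polarity genes. Without clothianidin replicate 6 the median was -0.15 for the polarity list and -0.01 for the cadherins.

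**Figure D5:**
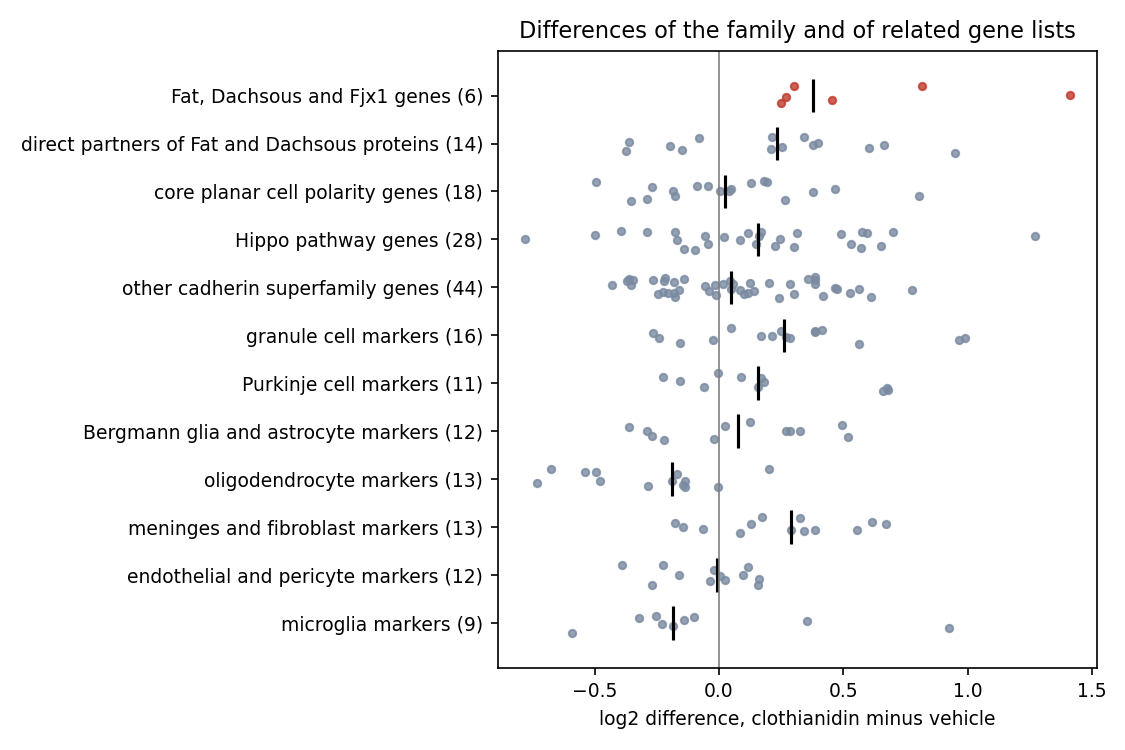
Each point is the log2 difference (clothianidin minus vehicle) of 1 gene, with the family in red, and black bars are list medians, with the number of measured genes in brackets. All 6 family members lie above 0, with a median of 0.38, and the related lists spread to both sides, with medians of 0.02 to 0.24 for the 4 pathway and cadherin lists. The choroid plexus markers are not drawn. Their log2 differences ran from -0.54 to 4.485, the highest being that of Ttr.

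Markers of the cell types in the sample were set beside the family, since in bulk tissue more cells of a type and more RNA per cell cannot be told apart. The labelled tissue showed strong signals of cerebellar neurons. The granule cell receptor gene Gabra6 was at 17.41, 17.09, 17.05 and 17.4 in the order of vehicle replicates 7 and 9 and clothianidin replicates 6 and 7. Its groups overlapped. Of 16 measured granule cell markers 12 were higher, with a median of 0.26. That median was 0.09 without clothianidin replicate 6, 0.42 without clothianidin replicate 7 and 0.13 after a further quantile normalization. The median deviation of these markers was -0.05, -0.14, 0.29 and -0.10 in the same order. The granule markers with the largest absolute differences, Tiam1, Zic2 and Zic1, had 0.99, 0.97 and 0.57 and were, like Fat2, highest on clothianidin replicate 6. The 4 lower markers were Barhl1 (-0.265), Cbln3 (-0.24), Cbln1 (-0.155) and Gabra6 (-0.025). The summed linear signal of the granule markers was 766775 to 913816 after vehicle and 807258 to 1092531 after clothianidin. Of these markers, 0 lay below the 95th percentile of the olfactory receptors. The part of granule cell content in the Fat2 difference was not tested.

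Markers of the meninges and fibroblasts, tissues around the brain, had 10 of 13 higher with a median of 0.29, and their summed signal was 21319 to 38488 after vehicle and 32555 to 40285 after clothianidin. Col1a1, the type I collagen gene, was at 5.97, 5.65, 6.05 and 5.83 in the same array order. Islr, Fmod and Ogn had the largest absolute log2 differences of this list, 0.67, 0.62 and 0.56. The 3 lower markers were Col1a2 (-0.175), Col3a1 (-0.145) and Lum (-0.065). Without vehicle replicate 9 the meningeal median was 0.01, and the log2 difference of Fat1 was 1.35. Choroid plexus markers had 6 of 11 higher with a median of 0.12, which was -0.03 without clothianidin replicate 7. On that array the transthyretin gene Ttr was at 13.96, against 5.7, 5.67 and 6.38 on the others, while the median deviation of the list there was 0.12. Kcnj13 and Folr1, with the next largest absolute differences, were also highest on that array, at 8.92 and 6.05. On the others Kcnj13 was at 6.99, 6.73 and 6.97 and Folr1 at 4.62, 4.92 and 5.24. Of the 11 choroid plexus markers, 5 were lower after clothianidin. The means of 5, Folr1 among them, lay below the 95th percentile of the olfactory receptors. Without clothianidin replicate 7 the log2 difference was 1.72 for Fat1 and 1.23 for Fat2. Oligodendrocyte markers had 12 of 13 lower with a median of -0.19, Purkinje cell markers 7 of 11 higher with 0.16, and Bergmann glia and astrocyte markers 7 of 12 higher with 0.08. The Purkinje markers with the largest absolute differences, Pcp2, Pcp4 and Calb1, had 0.68, 0.675 and 0.66, while 4 of the 11 had a lower mean. Groups were apart for 5 Purkinje markers with clothianidin higher and for 0 with it lower. Over all probe sets 15.1% were apart with clothianidin higher and 30.6% in either direction. Endothelial and pericyte markers had 6 of 12 higher with -0.01, and microglia markers 2 of 9 higher with -0.19. The means of 3 of the 9 microglia markers lay below the 95th percentile of the olfactory receptors. So did that of 1 endothelial and 1 meningeal marker. The medians of these cell types moved with single arrays. Leaving out vehicle replicate 7 brought the oligodendrocyte median to -0.03, and leaving out vehicle replicate 9 brought it to -0.4 and the Purkinje median to 0.1. After a further quantile normalization the Purkinje median was 0.04 and that of Bergmann glia -0.0088. Without vehicle replicate 7 the endothelial median turned to 0.21 and the microglial one to 0.09, and the Bergmann glia median was -0.04 without clothianidin replicate 6. The part of these cell types in the family's differences was not tested.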

How the data were processed

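Cerebellar RNA of 4 samples was measured on Affymetrix whole-transcript arrays. The authors deposited log2 probe set values summarised with RMA, per the submitters' processing notes. Its version, its settings and any scan batch are not given in the sources used here. Base 2 was assumed for the logs. Precision is limited by the number of arrays. Of 22206 probe sets, 19572 had 1 gene symbol in the platform annotation, 0 had several and 2634 were unnamed. The RefSeq gene table (GRCm38.p6) changed 0 symbols, and Pals1 was matched as Mpp5.

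Array medians were 6.49 to 6.54 and pairwise Pearson's r across probe sets 0.986 to 0.989. Groups were compared with limma 3.58.1 in R 4.3.3 (lmFit and eBayes, all probe sets, Benjamini-Hochberg at 0.05), after a test on simulated data. Prior and residual degrees of freedom were 5.96 and 2. Pairs of genes were compared with SciPy 1.17.1. The members and gene lists were chosen with earlier results of these data known. Named genes were the members, all measured partner genes, 4 set marker genes, and the 2 genes nearest in pattern to each member. Up to 3 of the largest absolute differences of each other list were also to be named. This was not done for the oligodendrocyte, Bergmann glia and astrocyte, endothelial and pericyte, and microglia lists. The paired design could not be used, as the groups share 1 replicate number. Alternatives were median centring, quantile normalization, filters on level, 1 probe set per gene, other eBayes priors, no moderation, other fold thresholds and leaving out each array. Another probe set of a member could not be tried, since each member had 1. Ccn1, Yap1, Wwtr1, Vangl1, Vangl2 and Fuz were named outside the rule. So were the lower granule and meningeal markers other than Gabra6.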

Additional observations from a re-analysis of the deposited data

How the results depend on the processing

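No paired analysis was possible because the groups share only 1 replicate number. With 1 array left out, the log2 difference lay between 1.11 and 1.72 for Fat1, 0.41 and 1.23 for Fat2, 0.01 and 0.49 for Fat3, 0.10 and 0.51 for Fat4, 0.03 and 0.89 for Dchs1, and -0.34 and 0.88 for Fjx1. The 1 sample left in a group is then assumed to vary like the other group. The members whose groups did not overlap numbered 2 to 5 in these fits, and 1 to 3 with at least 1.5-fold, where fewer samples overlap less easily. Even without a group effect, 1 array lies outside the range of 2 others more often than not. The share over all probe sets was not computed for these fits, so nothing is read from these counts. With all 4 arrays and a fold threshold of 2 there was 1 member apart, Fat1. Median centring and quantile normalization changed no member's direction. The response of Fat4 minus that of Dchs1 lay between -0.48 and 0.17 with 1 array left out and was 0.0056 after quantile normalization, so its sign is not settled. The cause was not tested. No member passed the adjusted threshold under any alternative. Over all probe sets, 8 passed without moderation, and 0 to 1 passed with 1 array left out, the 1 being Ttr without clothianidin replicate 6. The filter at the median level left out Fat3 and Fat4, and the filter at the 25th percentile left out none. Probe sets with unadjusted p under 0.05 numbered 576 without clothianidin replicate 6. The settings of the gene lists were added after seeing the data.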

Other observations

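The genes whose values ran closest to each member over the 4 arrays were sought among the 9914 brighter probe sets that carry a gene name, those not below the median, by the root mean square difference after each gene's mean was subtracted. These matches over 4 arrays are given as descriptions, and the likeness of each pattern to the member's follows from the choice. Nearest to Fat1 were the predicted gene Gm20172 (0.04) and Mical2 (0.07), which encodes an actin-oxidising enzyme. Mical2 was at 10.27 and 10.13 after vehicle and at 11.79 and 11.38 after clothianidin. Nearest to Fat2 were Nova2 (0.03), a neuronal splicing factor gene, and Ctnnd1 (0.04), which encodes the cadherin-binding protein p120-catenin. Nova2 was at 6.03 and 6.09 after vehicle and at 7.35 and 6.53 after clothianidin, and Ctnnd1 at 7.8 and 7.84 after vehicle and 8.99 and 8.12 after clothianidin. Both had close vehicle values and were highest on clothianidin replicate 6, which follows from their choice as nearest to Fat2. The nearest to Fat3 were the ubiquitin ligase gene Rnf20 and the splicing gene Srrm2, to Fat4 the acetyltransferase gene Ep300 and Noct, and to Dchs1 the spine scaffold gene Ppp1r9b and the U1 ribonucleoprotein gene Snrnp70. For Fjx1 they were P2rx4 and Nudt18, both lowest on vehicle replicate 9, at 7.5 and 6.65.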
